A study of Mus musculus with 13 samples.

Results

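The genes of 10 transcription factors of the developing limb were followed through the spontaneous immortalization of mouse embryonic fibroblasts (MEFs), namely Pitx1, Tbx4, Tbx5, Tbx2, Tbx3, Tbx15, Tbx18, Shox2, Meis1 and Meis2. They are 10 of the 55487 genes listed in both deposited count tables, and each was found once by its symbol. The 13 RNA-seq libraries are 3 primary and 3 immortalized wild-type (WT) MEF libraries, from clones 3, 4 and 5, and 3 primary and 4 immortalized libraries labelled Prkd3-/-, from clones 13, 14 and 15, with a further immortalized line named 13a. Prkd3 encodes protein kinase D3. No other allele or agent is named, the age of the embryos and the strain are not given in the sources used here, and cells grew in medium with 10% fetal calf serum (FCS), except that senescent cultures were kept in 20% FCS until lines came up, which were then returned to 10% FCS. Each immortalized line grew out of colonies that came up after prolonged culture, so a line stands for the cells that founded those colonies.

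The members belong to the programme that gives a limb its place and identity. Pitx1 and Tbx4 act in the hindlimb bud and Tbx5 in the forelimb bud, where Tbx4 and Tbx5 are known for switching on the Fgf10 signal of limb outgrowth, and Pitx1 is known to act upstream of Tbx4. Tbx2 and Tbx3 are T-box repressors of the anterior and posterior limb margins, Tbx15 and Tbx18 act in trunk and limb mesenchyme and in the skeleton and skin, and Shox2, Meis1 and Meis2 belong to the proximal limb. MEF cultures are made from the embryo's body and mix fibroblasts of many positions, so in bulk RNA fewer cells of a type and less RNA per cell cannot be told apart.

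All 10 fibroblast markers were counted in every library, but not all at steady levels. The collagen genes Col1a1 and Col1a2 were at 4949 CPM or more in every library, whereas the matrix gene Lum was at 165 to 192 CPM in WT primary libraries and at 0.0483 CPM in WT line 3, and Thy1 was at 524 CPM in primary library 13 and 4.85 CPM in line 13. Library totals ran from 35273408 to 100441756 counts. CPM values (counts divided by the library's total, on the usual scale) are normalized by TMM over all 13 libraries, on which scale 3 counts are worth 0.0277 to 0.0842, and levels per length divide them by the kilobases of exon. Reads of Prkd3 itself remained under the Prkd3-/- label, at 33.6 to 61.0 CPM against 69.2 to 93.7 CPM in WT, and counts per gene do not show single deleted exons, so the name refers to the label. Every WT primary library held both Xist, at 44.4 to 56.4 CPM, and the Y-linked gene Ddx3y, at 52.1 to 64.6 CPM (both without TMM). Transcripts typical of female and of male cells were thus present together. In WT lines 3, 4 and 5, Xist was at 153, 141 and 54.3 CPM and Ddx3y at 0.188, 29.8 and 63.1 CPM. The part of this in differences between lines and primary libraries was not tested. The study states that the WT primary cells came from 3 different embryos, and whether each library holds cells of a single embryo was not tested. Primary library 14 labelled Prkd3-/- stood apart from primary libraries 13 and 15. Comparisons between the Prkd3-/- states are given with and without it, and other comparisons without it only in part. The 2 genotypes come from separate count tables, and genotype cannot be told apart from whatever else differed between them. Coordinates are on GRCm38, as in the deposited tables.

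Where RNA starts at 3 of the members is shown here because they took different courses, with Tbx4 at or near 0 counts in 6 of 7 lines, Shox2 varying from line to line and Meis2 counted in all of them. RefSeq windows (GRCm38.p6) from 250 bases before to 50 bases after the start were given for 5 of the 10 members (Tbx4, Tbx18, Shox2, Meis1 and Meis2), and capitals mark each CG pair, the pair of bases that is methylated in mammals. The windows lie at chr11:85896515-85896814 on the plus strand for Tbx4, at chr3:66981722-66982021 on the minus strand for Shox2 and at chr2:116064570-116064869 on the minus strand for Meis2. The Tbx4 window holds a RefSeq start 10.3 kb inside the Ensembl gene, and the Meis2 window holds one 1.22 kb inside. The counts do not say which start was used.
Tbx4: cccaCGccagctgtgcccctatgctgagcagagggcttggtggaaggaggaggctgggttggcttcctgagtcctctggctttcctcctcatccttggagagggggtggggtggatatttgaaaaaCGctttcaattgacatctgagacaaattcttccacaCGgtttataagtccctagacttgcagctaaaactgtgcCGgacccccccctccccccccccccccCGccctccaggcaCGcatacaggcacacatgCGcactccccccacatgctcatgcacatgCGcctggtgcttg
Shox2: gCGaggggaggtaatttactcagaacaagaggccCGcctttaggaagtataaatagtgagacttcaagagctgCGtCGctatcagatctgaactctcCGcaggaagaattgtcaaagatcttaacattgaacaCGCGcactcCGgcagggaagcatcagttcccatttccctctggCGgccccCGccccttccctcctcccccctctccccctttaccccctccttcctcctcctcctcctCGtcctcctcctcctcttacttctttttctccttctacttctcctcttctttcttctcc
Meis2: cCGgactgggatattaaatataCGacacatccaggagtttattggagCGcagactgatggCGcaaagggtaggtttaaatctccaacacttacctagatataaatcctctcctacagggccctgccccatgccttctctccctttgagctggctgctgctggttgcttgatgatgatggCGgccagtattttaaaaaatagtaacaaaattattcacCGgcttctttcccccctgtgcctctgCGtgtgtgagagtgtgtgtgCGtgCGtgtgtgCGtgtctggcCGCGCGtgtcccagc

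The windows held 8 CG pairs at Tbx4, 11 at Shox2 and 13 at Meis2, against a median of 7 over all 32851 RefSeq windows of this length. Letters of 3 binding motifs were searched on both strands, and none of the 3 contains another: TAATCC for Pitx1, present in 7.06% of all windows, TGACAG for Meis factors, present in 19.2%, and AGGTGT for T-box factors, present in 13.7%. Of the 5 member windows, the Tbx18 window held 1 TGACAG, at base 269 of 300, and the other 4 windows held none of the 3 motifs.

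**Figure D1:**
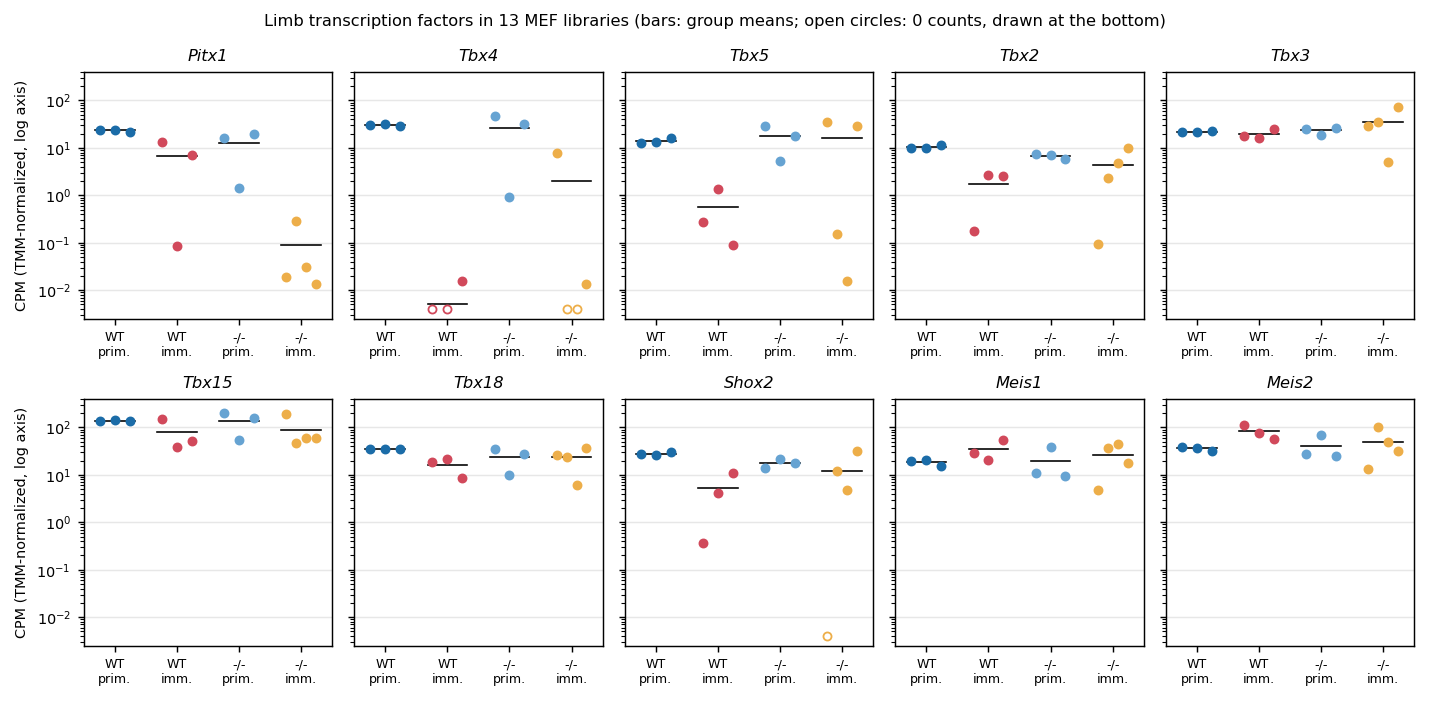
CPM of each factor on a log axis in the 13 libraries, by group, with a bar at the group mean and open circles for libraries with 0 counts. The WT primary libraries lie close together in every panel, whereas the immortalized libraries of Pitx1, Tbx4, Tbx5, Tbx2 and Shox2 spread over orders of magnitude.

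A hindlimb factor had the lowest Log2FC of the 10 members in each genotype, Tbx4 in WT and Pitx1 in Prkd3-/-. Tbx4 (ENSMUSG00000000094, chr11:85886422-85916097, plus strand) was at 31.0, 31.4 and 28.6 CPM in WT primary libraries 3, 4 and 5, and at 0, 0 and 0.0152 CPM in the immortalized lines of the same numbers. These were 6514 counts in the primary and 1 count in the immortalized group, a ratio of 5710 with an exact 95% interval of 1024 to 225552 that covers counting error only. The 0 counts of WT lines 3 and 4 allow up to 0.0483 and 0.0508 CPM. Tbx4 fell in WT immortalized MEFs with a Log2FC of -12.04 ± 0.48 (SE, n = 3 against 3) and an adjusted p of 0.000325 in edgeR's quasi-likelihood test. This SE is taken from the test statistic, and with 1 count in the lines it is narrower than the counting interval above. The size of the fall is thus known less closely than the SE gives. Tbx4 was the only one of 10 members called, which asked for a |Log2FC| of 1 or more and an adjusted p below 0.01. By this rule 1.76% of the 19836 genes tested were called lower and 0.0605% were called higher. With the clone as a block, the adjusted p of Tbx4 was 0.0223 and no gene of the table was called, and in a joint fit of all 13 libraries it was 0.165.

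In the libraries labelled Prkd3-/-, Tbx4 was at 47.7, 0.915 and 32.0 CPM in primary libraries 13, 14 and 15. The lines held 7.88 CPM in line 13, 0 in line 13a, 0 in line 14 and 0.0135 CPM in line 15. The groups overlap, because primary library 14 lies below line 13, and Tbx4 in line 13 was 413 counts while the other 3 lines held 1 count together. The Log2FC was -3.81 ± 2.34 (SE, n = 4 against 3) with an adjusted p of 0.832 in edgeR's test, and -4.37 ± 2.42 with an adjusted p of 0.998 without primary library 14. Without line 13 it was -12.03 ± 2.02 with an adjusted p of 0.266, so the value rests on that line. No gene of the whole table was called here, 0% of 20298 tested, with 1331 genes at an unadjusted p under 0.05 and 190 called by DESeq2. Against the primary library of its own number, Tbx4 was more than 2-fold lower in 7 of 7 lines, by log2 differences from -2.59 in line 13 to -11.68 in line 13a (prior count of 1). Primary library 13 served for both line 13 and line 13a.

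Pitx1 (ENSMUSG00000021506, chr13:55825051-55836192, minus strand), the homeodomain factor upstream of Tbx4 in the hindlimb, differed from line to line. Its WT primary libraries held 24.2, 24.3 and 21.6 CPM, and the WT lines 13.2, 0.0846 and 7.15 CPM. WT lines 3 and 5 thus held Pitx1 where Tbx4 was at 0 or 1 count. The WT groups do not overlap, but the spread among lines is wide, and the Log2FC of -1.78 ± 1.26 had an adjusted p of 0.499 in edgeR's test.
In primary libraries 13, 14 and 15 labelled Prkd3-/-, Pitx1 was at 16.5, 1.41 and 20.0 CPM. The 4 lines 13, 13a, 14 and 15 held 1, 21, 2 and 1 counts, or 0.0191, 0.288, 0.0313 and 0.0135 CPM. All 4 lines lie below all 3 primary libraries, with a Log2FC of -7.11 ± 1.37, an unadjusted p of 0.00106 and an adjusted p of 0.296 in edgeR's test. Pitx1 was the only member whose Prkd3-/- groups did not overlap, where 5.26% of the tested genes had every line lower and 4.19% every line higher. DESeq2 called it (adjusted p = 3.5e-07), and no edgeR alternative did, the adjusted p over all alternatives running up to 0.9996. Without primary library 14 the Log2FC was -7.64 ± 1.19 (adjusted p = 0.374).

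The forelimb factor Tbx5 (ENSMUSG00000018263, chr5:119832668-119885219, plus strand) was at 12.7, 13.5 and 16.4 CPM in the WT primary libraries and at 0.274, 1.35 and 0.0915 CPM in WT lines 3, 4 and 5. Every line lies well below every primary library, with 6 to 80 counts per line. The Log2FC of -4.64 ± 0.96 had an adjusted p of 0.0559 in edgeR's test, which misses the threshold. DESeq2 called it (adjusted p = 2.6e-07), as did edgeR without WT line 4, with a Log2FC of -6.27 and an adjusted p of 0.00713. Over all genes, DESeq2 called 1361 of 22922 and that edgeR fit 361 of 20402.
The libraries labelled Prkd3-/- did not share a direction. Primary libraries 13, 14 and 15 held 29.4, 5.39 and 17.6 CPM of Tbx5, while lines 13 and 15 held 34.9 and 28.9 CPM and lines 13a and 14 held 0.151 and 0.0156 CPM. Line 13 lies above all primary libraries, line 15 within their range, and lines 13a and 14 below all of them, with a Log2FC of -0.15 ± 1.78 (adjusted p = 0.994 in edgeR's test). Without line 13a it was 0.24, without line 14 it was 0.27, and limma with a weight per state gave -3.34.

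Set side by side per length, Tbx4 made up 77.1%, 76.2% and 70.5% of the summed Tbx4 and Tbx5 level in WT primary libraries 3, 4 and 5. It made up 69.1% and 71.4% in primary libraries 13 and 15 labelled Prkd3-/-, and 18.9% in primary library 14. No line reached the shares of primary libraries 3, 4, 5, 13 and 15. The share was 23.7% in line 13, and in line 15 Tbx5 made up 99.9% of a sum of 6.18 CPM per kb. The share of 18.6% in WT line 5 rests on 1 count of Tbx4 and 6 counts of Tbx5, and the other lines held no Tbx4. On CPM without the length, the 3 WT primary shares were 63.5% to 71.0%.

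**Figure D2:**
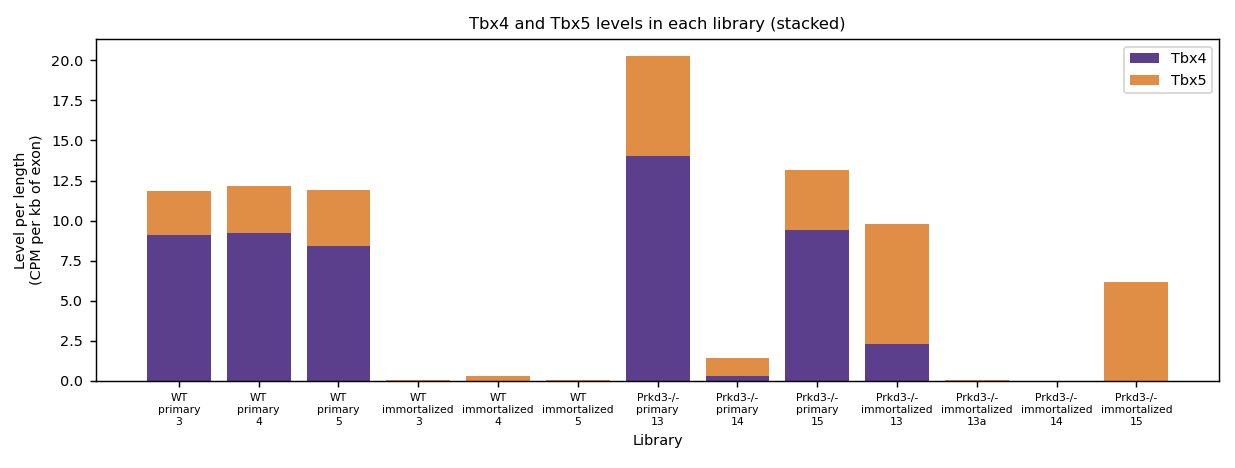
Levels of Tbx4 and Tbx5 per length (CPM per kb of exon), stacked, in each library. Both genes show in all primary libraries, lowest in primary library 14 labelled Prkd3-/- with a sum of 1.42, and among lines only 13 and 15 of the Prkd3-/- label show taller bars, with sums of 9.78 and 6.18 made mostly of Tbx5.

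Of the limb margin repressors, Tbx2 (ENSMUSG00000000093, chr11:85832551-85841948, plus strand) was at 10.1, 9.95 and 11.4 CPM in the WT primary libraries and at 0.177, 2.62 and 2.50 CPM in WT lines 3, 4 and 5. The groups do not overlap, with a Log2FC of -2.56 ± 0.87 and an adjusted p of 0.186 in edgeR's test. Without line 3 the remaining lines agree closely, and edgeR then called it with a Log2FC of -2.03 and an adjusted p of 0.00235. That fit called 539 of 20370 genes tested. In the libraries labelled Prkd3-/-, primary libraries 13, 14 and 15 held 7.34, 7.12 and 5.89 CPM, and lines 13, 13a, 14 and 15 held 0.0954, 2.27, 4.88 and 10.2 CPM. The lines other than 15 lie below the primary range and line 15 lies above it (Log2FC -0.65 ± 1.06, adjusted p = 0.922).

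Tbx3 (ENSMUSG00000018604, chr5:119670669-119684724, plus strand), the close relative of Tbx2, had similar values in both WT states. Its WT primary libraries held 21.6, 22.0 and 22.2 CPM and its WT lines 18.2, 15.9 and 24.8 CPM, with overlapping groups and a Log2FC of -0.16 ± 0.18 (adjusted p = 0.677 in edgeR's test). The Prkd3-/- primary libraries held 25.4, 18.8 and 26.8 CPM, and lines 13, 13a, 14 and 15 held 28.8, 36.0, 4.99 and 71.8 CPM. Line 14 had the lowest and line 15 the highest Tbx3 of all 13 libraries. The Log2FC was 0.57 ± 0.72 (adjusted p = 0.894), and -0.04 without line 15.

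Tbx15 and Tbx18, the trunk and limb mesenchyme factors, were above 6 CPM in every library. Tbx15 (ENSMUSG00000027868, chr3:99240381-99354259, plus strand) was at 136, 142 and 135 CPM in the WT primary libraries and at 153, 39.4 and 51.5 CPM in WT lines 3, 4 and 5. Line 3 lies above the primary range and the other 2 lines lie below it, so that the groups overlap (Log2FC -0.76 ± 0.52, adjusted p = 0.483 in edgeR's test). Without line 3, edgeR called Tbx15 with a Log2FC of -1.59 and an adjusted p of 0.00518, in a fit that called 539 of 20370 genes. The Prkd3-/- primary libraries held 199.5, 55.6 and 158 CPM, and lines 13, 13a, 14 and 15 held 190.5, 48.0, 59.5 and 61.3 CPM. Line 13 resembles primary libraries 13 and 15, and the other lines resemble primary library 14 (Log2FC -0.64 ± 0.60, adjusted p = 0.875).

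Tbx18 (ENSMUSG00000032419, chr9:87702800-87731260, minus strand) was at 34.8, 35.8 and 35.1 CPM in the WT primary libraries and at 19.0, 21.7 and 8.57 CPM in WT lines 3, 4 and 5. All lines lie below all primary libraries, with a Log2FC of -1.10 ± 0.34 and an adjusted p of 0.152 in edgeR's test. In the libraries labelled Prkd3-/-, the primary values of 34.4, 9.74 and 27.1 CPM and the line values of 26.4, 23.8, 6.03 and 36.8 CPM overlap (Log2FC -0.04 ± 0.62, adjusted p = 0.995). Of the Tbx18 exon bases, 20.6% are shared with D030062O11Rik on the other strand, and the counting of the WT table used no strand, so reads of the pair cannot be told apart. The same holds for smaller parts of Meis1 (8.51% with Gm16140), Pitx1 (6.21% with Gm47071), Shox2 (4.62% with Rsrc1) and Tbx3 (1.74% with Tbx3os1).

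Shox2 (ENSMUSG00000027833, chr3:66971727-66981771, minus strand), a homeodomain factor of the proximal limb skeleton, was at 27.1, 26.5 and 31.0 CPM in the WT primary libraries and at 0.371, 4.13 and 11.1 CPM in WT lines 3, 4 and 5. The lines lie below the primary libraries but range 30.0-fold among themselves, and the Log2FC of -2.43 ± 1.03 had an adjusted p of 0.271 in edgeR's test. The Prkd3-/- primary libraries held 13.8, 21.6 and 18.1 CPM. Line 13 held 0 counts of Shox2, which allows up to 0.0573 CPM, whereas lines 13a, 14 and 15 held 12.0, 4.80 and 32.1 CPM. Line 15 exceeds every library of either genotype, and the Log2FC was -0.55 ± 1.42 (adjusted p = 0.957).

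Both Meis genes, which encode homeodomain proteins, had higher values in the WT lines. Meis2 (ENSMUSG00000027210, chr2:115863064-116065839, minus strand) was at 38.7, 37.7 and 31.8 CPM in the WT primary libraries and at 114, 76.6 and 57.3 CPM in WT lines 3, 4 and 5. The groups do not overlap, with a Log2FC of 1.19 ± 0.26 and an adjusted p of 0.0650 in edgeR's test. DESeq2 called it (adjusted p = 0.0012). Meis1 (ENSMUSG00000020160, chr11:18879817-19018985, minus strand) was at 19.3, 20.1 and 15.7 CPM in the WT primary libraries and at 29.5, 20.7 and 54.3 CPM in the lines, and line 4 lies just above the highest primary library (Log2FC 0.93 ± 0.36, adjusted p = 0.24). Without line 5 the Log2FC of Meis1 was 0.45.
In the libraries labelled Prkd3-/-, Meis2 held 27.8, 70.0 and 24.4 CPM in the primary libraries and 13.2, 103, 48.5 and 32.3 CPM in lines 13, 13a, 14 and 15. Meis1 held 10.96, 38.9 and 9.68 CPM in the primary libraries and 4.73, 36.6, 44.9 and 17.8 CPM in the lines. For both genes line 13 has the lowest value of all 13 libraries, and the groups overlap (Log2FC 0.27 ± 0.69 and adjusted p = 0.957 for Meis2, 0.39 ± 0.80 and adjusted p = 0.941 for Meis1).

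**Figure D3:**
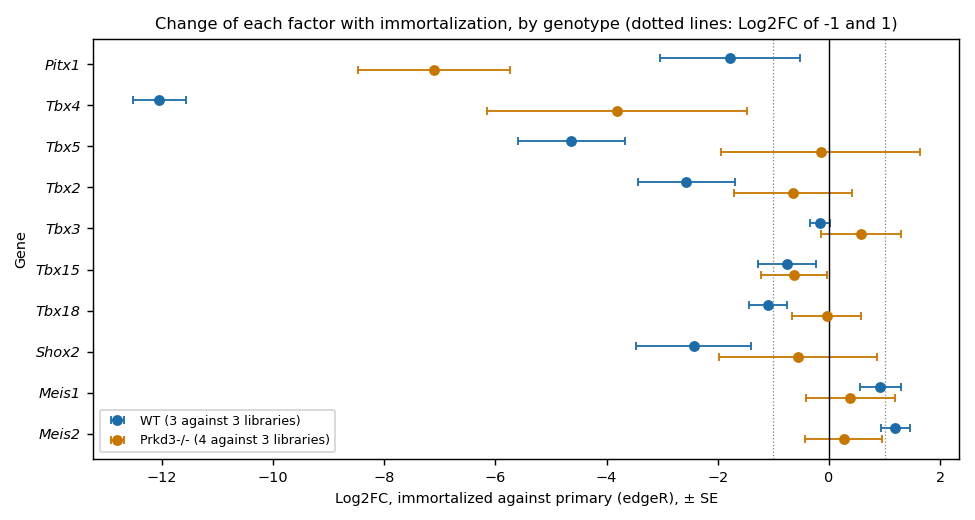
Log2FC of each factor between immortalized and primary MEFs with its SE from edgeR, in WT (blue) and in the libraries labelled Prkd3-/- (orange). Tbx4 in WT lies at -12.04 and Pitx1 in Prkd3-/- at -7.11, and the SE exceeds 1 for 5 of the factors in Prkd3-/-, namely Pitx1, Tbx4, Tbx5, Tbx2 and Shox2.

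Over the 10 members, the median Log2FC was -1.44 in WT against 0.04 over all genes tested, and -0.35 in Prkd3-/- against 0.07. In WT, 6 of 10 members had every line below every primary library and 2 had every line above, where 17.4% of tested genes had every line lower and 13.9% every line higher. The 6 were Pitx1, Tbx4, Tbx5, Tbx2, Tbx18 and Shox2, and the 2 were Meis1 and Meis2. The change from primary to immortalized cells was compared between genotypes as an interaction over all 13 libraries, and none of 10 members was called at an adjusted p under 0.05, where 0% of 21197 genes were (841 had an unadjusted p under 0.05, and DESeq2 called 37). Pitx1 had the smallest p, with a difference of -5.31 ± 1.90 on the log2 scale and an unadjusted p of 0.0169. Tbx4 had a difference of 8.27 ± 3.75 and an unadjusted p of 0.0491, and the adjusted p was 1.00 for all 10 members. Without line 13 the Tbx4 difference was 0.047, so it rests on that line. Of the others, Tbx5 had a difference of 4.51 ± 2.43, Tbx2 of 1.92 ± 1.51, Shox2 of 1.89 ± 1.95, Tbx18 of 1.07 ± 0.81, Tbx3 of 0.74 ± 0.85 and Tbx15 of 0.14 ± 0.87. Meis2 and Meis1 had differences below 0, of -0.93 ± 0.84 and -0.54 ± 0.99.

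In primary MEFs alone, none of the 10 members was called between genotypes, where 0.765% of 20403 tested genes were. There were 4 members with every Prkd3-/- library below every WT library, namely Pitx1, Tbx2, Tbx18 and Shox2, where 18.8% of tested genes had every Prkd3-/- library lower and 15.5% every one higher. For Tbx2 the Log2FC was -0.60 ± 0.12 (adjusted p = 0.0422 in edgeR's test) and for Shox2 it was -0.64 ± 0.18 (adjusted p = 0.0892). The Log2FC was -0.88 ± 0.82 for Pitx1 and -0.55 ± 0.42 for Tbx18, and those of Tbx4, Tbx5, Tbx3, Tbx15, Meis1 and Meis2 lay between -0.17 and 0.31. Without primary library 14 the adjusted p in edgeR's test was 0.00662 for Tbx2, 0.00451 for Shox2 and 0.00222 for Meis1, all with a |Log2FC| under 1. That fit called 1456 of 20428 genes, against 156 of 20403 with all libraries, so low adjusted p were common in it. The Meis1 difference changed sign, from 0.14 to -0.82. Between the immortalized lines of the 2 genotypes, none of 9 members tested was called, where 0.0406% of 19683 tested genes were. Tbx4 had too few counts to pass edgeR's filter there. Pitx1 again had the smallest p, with a Log2FC of -6.21 ± 1.69 and an adjusted p of 0.551, and DESeq2 called it (adjusted p = 0.00104). Tbx5 had a Log2FC of 4.80 ± 2.37 (adjusted p = 0.741), and those of Tbx2, Tbx3, Tbx15, Tbx18, Shox2, Meis1 and Meis2 lay between -0.74 and 1.30. These comparisons share their libraries with those between the states.

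Primary library 14 labelled Prkd3-/- held less of the hindlimb, forelimb and trunk factors than primary libraries 13 and 15. Against the mean of these 2, Tbx4 was 43.5-fold lower, Pitx1 13.01-fold, Tbx5 4.35-fold, Tbx15 3.21-fold and Tbx18 3.16-fold lower, whereas Meis1 was 3.77-fold and Meis2 2.68-fold higher. Tbx2, at 1.08 times their mean, and Tbx3, at 0.719 times, were close to it, and Shox2 was at 1.35 times. These are ratios of single libraries with no test. Left out of the Prkd3-/- comparison of states, it moved the Log2FC of Meis1 from 0.39 to 1.33, of Meis2 from 0.27 to 0.91, of Tbx15 from -0.64 to -1.01, of Tbx18 from -0.04 to -0.41 and of Tbx5 from -0.15 to -0.58. Those of Tbx2, Tbx3 and Shox2 were then -0.61, 0.43 and -0.39, and all these adjusted p were 0.998 in edgeR's test.
The summed level of 10 macrophage markers was 1086 CPM in primary library 14, the highest of the 3 Prkd3-/- primary libraries, the lowest being 91.9 CPM. Its part in these differences was not tested.

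Lines 13 and 13a differed in most factors, and how line 13a relates to clone 13 is not described beyond its name. Tbx5 was 231-fold and Tbx15 3.97-fold higher in line 13, and Tbx4 was at 413 counts there and at 0 in line 13a. Tbx2 was 23.8-fold, Meis1 7.72-fold and Meis2 7.77-fold higher in line 13a, which also held 875 counts of Shox2 against 0 and 21 counts of Pitx1 against 1. Tbx3 was 1.25-fold higher in line 13a and Tbx18 1.11-fold higher in line 13.

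**Figure D4:**
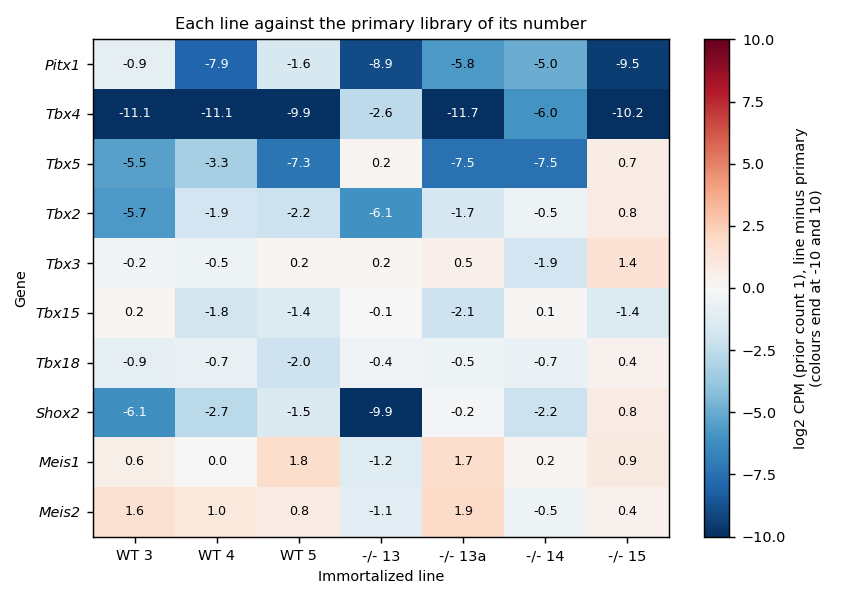
Difference in log2 CPM (prior count of 1) between each immortalized line and the primary library of its own number, with 13a set against primary library 13. The Tbx4 row lies below -2 in all 7 lines, and the Tbx18 row lies between -2.0 and 0.4.

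Counted line by line against its own primary library, Pitx1 was more than 2-fold lower in 6 of 7 lines and Tbx5, Tbx2 and Shox2 in 5 of 7 lines each. Tbx15 was more than 2-fold lower in 4 lines, and Tbx18 and Tbx3 in 1 line each. Meis2 was more than 2-fold higher in 3 lines and Meis1 in 2 lines, and each was more than 2-fold lower in 1 line, which was line 13. By line, 4, 6 and 7 of 10 members were more than 2-fold lower in WT lines 3, 4 and 5, where 17%, 15.1% and 12.6% of all genes tested were. In lines 13, 13a, 14 and 15 labelled Prkd3-/- it was 6, 5, 5 and 3 members, where 23.1%, 8.29%, 15.5% and 14.1% of all genes were. More than 2-fold higher was 1 member in each WT line, where 4.36%, 3.94% and 7.02% of all genes were. In lines 13, 13a, 14 and 15 it was 0, 2, 0 and 1 members, where 10.3%, 7.95%, 12.3% and 8.72% of all genes were. The deviations of line 13a from its group mean correlated at 0.350 with those of primary library 14 and at -0.302 with those of primary library 13, over 20298 genes, which are not independent. Set against primary library 14 instead, a choice made after seeing the data, line 13a had 4 members more than 2-fold lower and 1 higher, in place of 5 and 2. Meis1 (36.6 against 38.9 CPM), Meis2 (103 against 70.0 CPM) and Tbx15 (48.0 against 55.6 CPM) were then within 2-fold, and Tbx18 was the higher one.

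Per length, Tbx15 had the highest level of the 10 factors in each of the 4 groups. In WT primary libraries it was at 36.7 ± 0.96 CPM per kb (SD, n = 3), followed by Tbx4, Pitx1 and Shox2 at 8.93 ± 0.45, 8.80 ± 0.58 and 8.51 ± 0.74, which overlap. Tbx18 came next at 7.46 ± 0.11, below the range of Shox2. Tbx3, Tbx5, Meis2 and Tbx2 lay between 3.31 ± 0.049 and 2.89 ± 0.21, each overlapping the next, and Meis1 was lowest at 1.74 ± 0.22. In the WT lines the order became Tbx15 at 21.7 ± 16.7, then Meis2 at 6.86 ± 2.38, then Tbx18, Meis1, Tbx3, Pitx1, Shox2 and Tbx2 with overlapping neighbours, then Tbx5 at 0.123 ± 0.15 and Tbx4 at 0.0015 ± 0.0026 CPM per kb. Among the lines labelled Prkd3-/- only Tbx15, at 24.0 ± 17.99 CPM per kb, stood clear of the next gene in the order. The coefficient of variation of the members' CPM was 1.45% to 13.9% in the WT primary group, 11.5% to 88.6% in the Prkd3-/- primary group, 23.6% to 173% in the WT lines and 55.0% to 200% in the Prkd3-/- lines.

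Some members are neighbours of each other in the genome (GRCm38). Tbx2 and Tbx4 lie 44.5 kb apart on chromosome 11, and Tbx3 and Tbx5 lie 148 kb apart on chromosome 5, all on the plus strand. In WT lines both genes of the first pair had lower values, by Log2FC of -2.56 and -12.04, whereas Tbx5 and Tbx3 parted, at -4.64 and -0.16.
The 3 nearest tested genes on either side of each member, 49 genes that are not members, had a median Log2FC of 0.00 in WT. Of all 19836 genes tested 1.82% were called in either direction, and of these 49 neighbours 1 was called. This was Gm43050, which starts 6.55 kb before Tbx5, with a Log2FC of -6.74 ± 0.76 (adjusted p = 0.00781 in edgeR's test) and 0.777 ± 0.24 CPM in the primary libraries. Around Tbx4, the DNA helicase gene Brip1 had a Log2FC of -0.62 ± 0.25 and Bcas3 one of 0.18 ± 0.11, neither called. Next to Meis2, the genes 2700033N17Rik and G630016G05Rik had Log2FC of 1.29 ± 0.39 and 1.31 ± 0.50, neither called, and next to Pitx1 the gene Gm28760, which shares 4.07% of the Pitx1 exon bases, had 0.348 ± 0.078 CPM in WT primary libraries and 0 counts in every WT line.

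**Figure D5:**
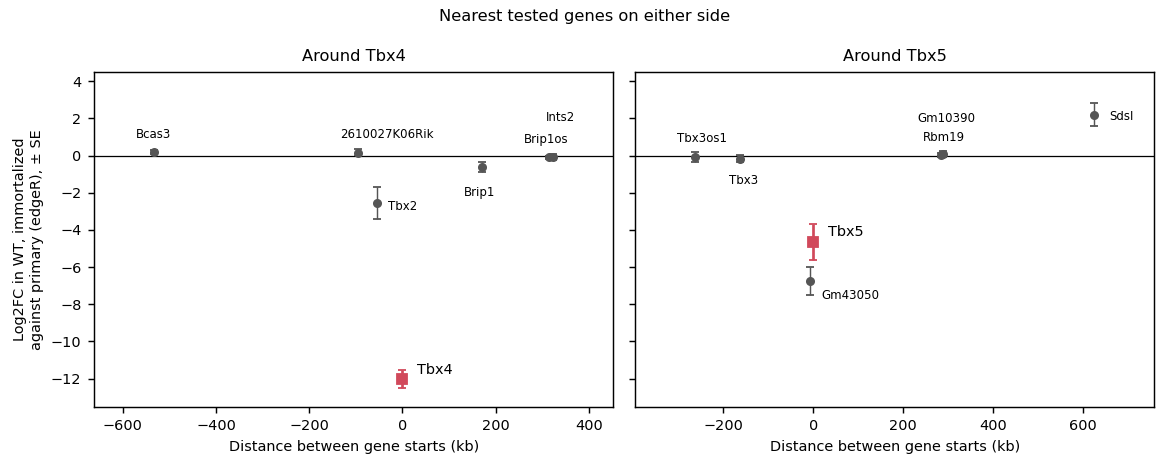
Log2FC in WT with its SE (edgeR) of Tbx4 and Tbx5 (red squares) and of the 3 nearest tested genes on either side (grey), against the distance between gene starts in kb. Around Tbx4, Tbx2 lies at -2.56 and the other 5 between -0.62 and 0.18, and around Tbx5, Gm43050 lies at -6.74 while Tbx3 lies at -0.16.

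Over the 13 libraries, which share genotype, state and clone and are not independent points, the genes with log2 CPM most like each member were ranked among 15784 genes with a mean of at least 1 CPM. Tbx3 was most like Tbx3os1 (r = 0.98), Tbx18 most like D030062O11Rik (r = 0.98) and Meis1 most like Gm37818 (r = 0.99), each of which shares exon bases with its member. Pitx1 was most like Hand2os1 (r = 0.96), Tbc1d2 and Gm37165, Tbx4 most like Tnfaip8l3 (r = 0.96), C130021I20Rik and Hoxd12, and Tbx5 most like Ampd2 (r = 0.95), Eml2 and Hoxd13. Tbx2 was most like Syt14 (r = 0.96), Hyal1 and Fam78b, and Shox2 most like Klhl29 (r = 0.97), Fam78b and AW551984. Tbx15 was most like Prr33 (r = 0.93), Celsr1 and Coch, and Meis2 most like Rgmb (r = 0.92), Nid1 and Gm48682. Among the members themselves, Tbx2 and Shox2 (r = 0.94, rho = 0.93) and Meis1 and Meis2 (r = 0.82, rho = 0.82) were the closest pairs, and Tbx5 ran against Meis1 (r = -0.80, rho = -0.93). Of the 30 genes ranked in the first 3 by Pearson's r, 7 were also there by Spearman's rho.

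Among genes of the same programme, 10 other T-box genes were found, 4 of which had enough counts in WT, and none was called (median Log2FC 0.14, against 0.04 over all genes). The heart factor Tbx20 was at 0 to 0.0457 CPM in WT lines but at 30.5 CPM in line 15 labelled Prkd3-/-, and Mga stayed between 72.5 and 108 CPM throughout.

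Of 44 limb bud outgrowth and patterning genes, 36 were tested in WT, 2 were called lower and 0 higher, with a median Log2FC of -0.57. The 2 were Sall1, a zinc finger factor of limb and kidney, at 4.57 to 5.99 CPM in primary libraries and 0 counts in all 3 lines, with 3 counts allowing up to 0.0457 to 0.0508 CPM per line (adjusted p = 0.00253 in edgeR's test), and Aldh1a2, a retinoic acid synthesis enzyme, with a Log2FC of -6.05 ± 0.66 (adjusted p = 0.00708). Fgf10, the outgrowth signal downstream of Tbx4 and Tbx5, was at 57.3 to 66 CPM in WT primary libraries and at 28.2, 135 and 175 CPM in WT lines 3, 4 and 5, so it was present where Tbx4 was at 0 or 1 count. In lines 13, 13a, 14 and 15 labelled Prkd3-/- it was at 5.74, 109, 26.0 and 38.2 CPM, and line 13 was the line with the most Tbx4 (7.88 CPM). Tbx5 was at 34.9, 0.151, 0.0156 and 28.9 CPM in the same 4 lines. In WT lines 3, 4 and 5 Tbx5 was at 0.274, 1.35 and 0.0915 CPM. A link between the levels of these genes was not tested. In Prkd3-/- against WT primary MEFs 1 of the list was called, Bmp4, with a Log2FC of -1.25 ± 0.14 (adjusted p = 0.00948).
Of 16 axial and limb segment Hox genes all were tested in WT, and 5 were called lower, namely Hoxa13, Hoxd10, Hoxd11, Hoxd12 and Hoxd13, with Log2FC from -8.53 to -11.08 (list median -0.40). The other 11, among them Hoxa10 and Hoxc10, were not called. No gene of these 3 lists was called in Prkd3-/- between the states.

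Markers of other cell types also differed in level between libraries. Of 10 macrophage markers, 6 were called lower in WT lines, and their summed level was 686 to 717 CPM in WT primary libraries and 33.8 to 100 CPM in WT lines. It was 91.9 to 1086 CPM in Prkd3-/- primary libraries and 10.5 to 185 CPM in the lines, where line 13 had 6 of the 10 at 0 counts. Of 7 endothelial markers 5 were tested in WT, and 1 was called lower in WT lines, the receptor gene Tek. The sum of all 7 ran from 12.3 to 16.7 CPM in WT primary libraries to 0.677 to 2.09 CPM in WT lines. Enough counts for a test in WT were held by 3 of 8 skeletal muscle, 6 of 8 chondrocyte and 3 of 8 epithelial markers. The same held for 3 of 6 Schwann cell and neural crest and 5 of 9 visceral and mesothelial mesenchyme markers. No tested marker of these 5 lists was called between the WT states. The sums over all markers of a list ran from 23.5 to 26.5 CPM in WT primary libraries to 0.914 to 7.28 CPM in WT lines for skeletal muscle. For chondrocytes they ran from 207 to 267 to 78.6 to 733, and for epithelium from 4.65 to 5.31 to 0.596 to 1.63. For Schwann cells and neural crest they ran from 1.73 to 2.06 to 0.564 to 1.22. For visceral and mesothelial mesenchyme they ran from 37.2 to 57.8 to 12.0 to 24.6. The part of these cell types in the members' differences was not tested.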

How the data were processed

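Poly-A RNA of 13 MEF libraries was sequenced in read pairs. Per the labels and the methods of the study, the authors mapped pairs to mm10 with STAR 2.7.10a, used SAMtools 1.18, and counted them with featureCounts (Subread 2.0.6; genes of Ensembl release 102) without a strand option, giving a pair to every gene it overlapped. The command behind the Prkd3-/- table is not given in the sources used here. The 2 deposited tables hold raw counts and exon lengths of genes, and were used as they stand. Library totals of 35273408 to 100441756 counts set the counting precision, and floors and intervals cover counting error only.

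Gene symbols came from a reference table that matched 55141 of 55487 gene identifiers. Comparisons used edgeR 4.0.16 in R 4.3.3, with TMM, filterByExpr and a robust quasi-likelihood test over all genes, Benjamini-Hochberg adjustment, and calls where the adjusted p was below 0.01 and the |Log2FC| 1 or more. The SE is the |Log2FC| over the root of F. The interaction was tested at an adjusted p under 0.05. The fits were tested on simulated data. CPM for printing were scaled by TMM, and log2 CPM used a prior count of 1. P-values measure the spread between libraries. The study states that the WT primary cells came from 3 different embryos, yet each WT primary library held both Xist and Ddx3y. Whether the WT primary libraries are independent cultures was not tested.

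The members and the gene lists were chosen with earlier results of these data known. The results of 1 further gene list are not reported here. All members were named in every comparison, some by a range, with the called genes of each list and at most 4 others, the 3 genes most like each member, the 3 nearest tested genes on either side, and genes sharing exon bases. Alternatives were DESeq2 1.42.0, limma 3.58.1 with a weight per state, other size factors and filters, no robust option, a joint fit, the clone as a block, lines 13 and 13a summed, other thresholds, and each library left out in turn. Clone numbers pair the WT libraries, because each line was grown from the primary cells of its number. Deviations of same-numbered WT libraries correlated at -0.037, 0.038 and -0.049, and those labelled Prkd3-/- at 0.156 (13), -0.302 (13a, set against 13), 0.095 (14) and 0.035 (15).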

Additional observations from a re-analysis of the deposited data

Results flagged for a closer look

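Within the 4 immortalized lines labelled Prkd3-/-, 3 of the 10 members had a line that stood apart from the other 3 by Dixon's test at the 95% level. Chance flags about 1 in 20 groups of normally distributed values. CPM near 0 counts are not so distributed, so that rate need not hold here. Tbx4 was at 7.88 CPM in line 13 and at 0 to 0.0135 CPM in the others. Tbx15 was at 190.5 CPM in line 13 and at 48.0 to 61.3 CPM in the others. Pitx1 was at 0.288 CPM in line 13a, which is 21 counts, and at 1 or 2 counts in the others.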

How the results depend on the processing

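In WT, 1 member (Tbx4) was called by the main test and under 7 alternatives that kept all libraries (other size factors, library size alone, no filter, no robust option, limma, an adjusted p under 0.05, a |Log2FC| of at least 2). DESeq2 called 3 members (Tbx4, Tbx5 and Meis2). With at least 10 counts in every library 0 were called, since Tbx4 then could not be tested, and the joint fit called 0 and the replicate block 0. Leaving out a library gave 1 to 3, with Tbx2 and Tbx15 added without WT line 3 and Tbx5 added without WT line 4. Among all genes tested, 539 of 20370 were called without WT line 3 and 361 of 20402 without WT line 4. With all libraries it was 361 of 19836. The count was 0 in every other comparison, except that DESeq2 called 1 member (Pitx1) in Prkd3-/- between the states and 1 (Pitx1) between genotypes in the lines. The replicate block gave 0 in Prkd3-/- and 0 for the difference between genotypes, and changed no call but that of Tbx4. Over the whole table, DESeq2 called 1361 genes in WT against 361 by edgeR.

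Line 13 set the size of 2 Tbx4 values. Without it, the Log2FC in Prkd3-/- between the states went from -3.81 to -12.03 and the difference between genotypes from 8.27 to 0.047. In WT, Meis1 ran from 0.45 (without line 5) to 1.19 (without line 4). With limma and a weight per state, the Prkd3-/- Log2FC was -3.34 for Tbx5, -2.85 for Shox2, -1.77 for Tbx2 and -7.66 for Tbx4. With line 13a set against primary library 14, chosen after seeing the data, 1 member in place of 2 was more than 2-fold higher.

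Some small differences changed sign when 1 library was left out. In Prkd3-/- between the states, the Log2FC then ran from -0.85 to 0.45 for Tbx5, -0.039 to 0.93 for Tbx3, -0.41 to 0.31 for Tbx18, -0.018 to 1.33 for Meis1 and -0.39 to 0.91 for Meis2. Between genotypes in primary MEFs it ran from -0.88 to 0.41 for Tbx4, -0.29 to 0.75 for Tbx5, -0.34 to 0.39 for Tbx15, -0.82 to 0.45 for Meis1 and -0.45 to 0.45 for Meis2. Between genotypes in the lines it ran from -0.53 to 0.96 for Tbx15 and -0.82 to 0.039 for Meis1, and for the difference between genotypes from -0.53 to 0.95 for Tbx15 and -0.94 to 0.41 for Meis1. With lines 13 and 13a summed, Tbx15 was at -0.10 between the lines of the genotypes and at -0.11 for the difference between genotypes. The cause was not tested. Depth limits genes at 0 to 3 counts, such as Tbx4 in the WT lines.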
